A study of Homo sapiens with 6 samples.

Results

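Oxidative phosphorylation genes were examined in BT549 cells after BNC2 knockdown. These genes encode the respiratory chain complexes I to IV, the ATP synthase (complex V), the electron carrier cytochrome c and a few complex I assembly factors. They were chosen by symbol: all genes of the count table whose names begin with NDUF, UQCR, COX4 to COX8 or ATP5, the genes SDHA to SDHD, CYC1 and CYCS. This gave 98 of 23346 genes, of which 87 were expressed highly enough to be tested (above 1 CPM, which is counts scaled to a common library size, in 3 or more libraries). Only ATP5E passed this filter through the libraries of a single group. BT549 is a mesenchymal human breast cancer line, wild type by its label, in which the zinc finger protein BNC2 (basonuclin-2) is expressed. Cells received 20 nM of either an equal mixture of 3 BNC2 siRNAs or the supplier's control siRNA (NC siRNA), and poly(A) RNA was sequenced 6 d later from 3 replicates of each. The comparison asks which of these genes differed in RNA level once BNC2 was reduced.

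Oxidative phosphorylation passes electrons from NADH (at complex I) and from succinate (at complex II, which is also the succinate dehydrogenase of the TCA cycle) through ubiquinone to complex III, then through cytochrome c to complex IV, where oxygen is reduced. Complexes I, III and IV pump protons across the inner mitochondrial membrane, and complex V uses their return to make ATP. Most subunits are encoded in the nucleus and imported, while the innermost membrane subunits of complexes I, III, IV and V are encoded in mitochondrial DNA, and these were not analysed here. A complex must be built from a fixed number of each subunit with the help of assembly factors, so the RNA levels of its genes are usually described together.

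The libraries held 16093978 to 18246254 counts assigned to genes, and the first principal component, with 90.8% of the variance, separated the groups. BNC2 itself was at 65.6, 51.5 and 58.6 CPM under NC siRNA and at 35.5, 36.6 and 41.6 CPM under its own siRNA (log2 fold change -0.63, SE 0.09, adjusted p = 8.2e-06), so 64.6% of the BNC2 RNA was left. The mesenchymal marker VIM stood at 3024 CPM with NC siRNA, and the epithelial markers CDH1, EPCAM, ESRP1 and GRHL2 at no more than 1 count in any library. PTPRC of leukocytes and PECAM1 of endothelium had at most 7 counts. In this bulk RNA, fewer cells of a type and less RNA per cell cannot be told apart.

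After BNC2 knockdown the RNA of most oxidative phosphorylation genes was lower by a modest amount, while a smaller group that included the accessory subunit NDUFA5 of complex I, most of complex II and cytochrome c (CYCS) was higher. Of the 87 genes tested, 48 fell, 15 rose and 24 did not pass the test (edgeR quasi-likelihood test, Benjamini-Hochberg adjusted p of at most 0.05). Calls were common across the transcriptome, and the background is therefore high: 72.9% of the 12186 genes tested were called, 36.6% up and 36.2% down. The share of oxidative phosphorylation genes called, 72.4%, lay near that background, and 55.2% of them fell and 17.2% rose. Their median log2 fold change was -0.23, against 0.00 over all genes tested. All 3 BNC2 siRNA libraries lay below all 3 NC siRNA libraries in 46 of the 87 genes and above them in 16, and groups did not overlap in 74.9% of all genes tested. Large changes were few: 2 members, NDUFA5 and NDUFAF4, were called with a change of more than 2-fold, which is 2.30% of those tested, whereas 18.1% of all genes met that criterion.

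**Figure D1:**
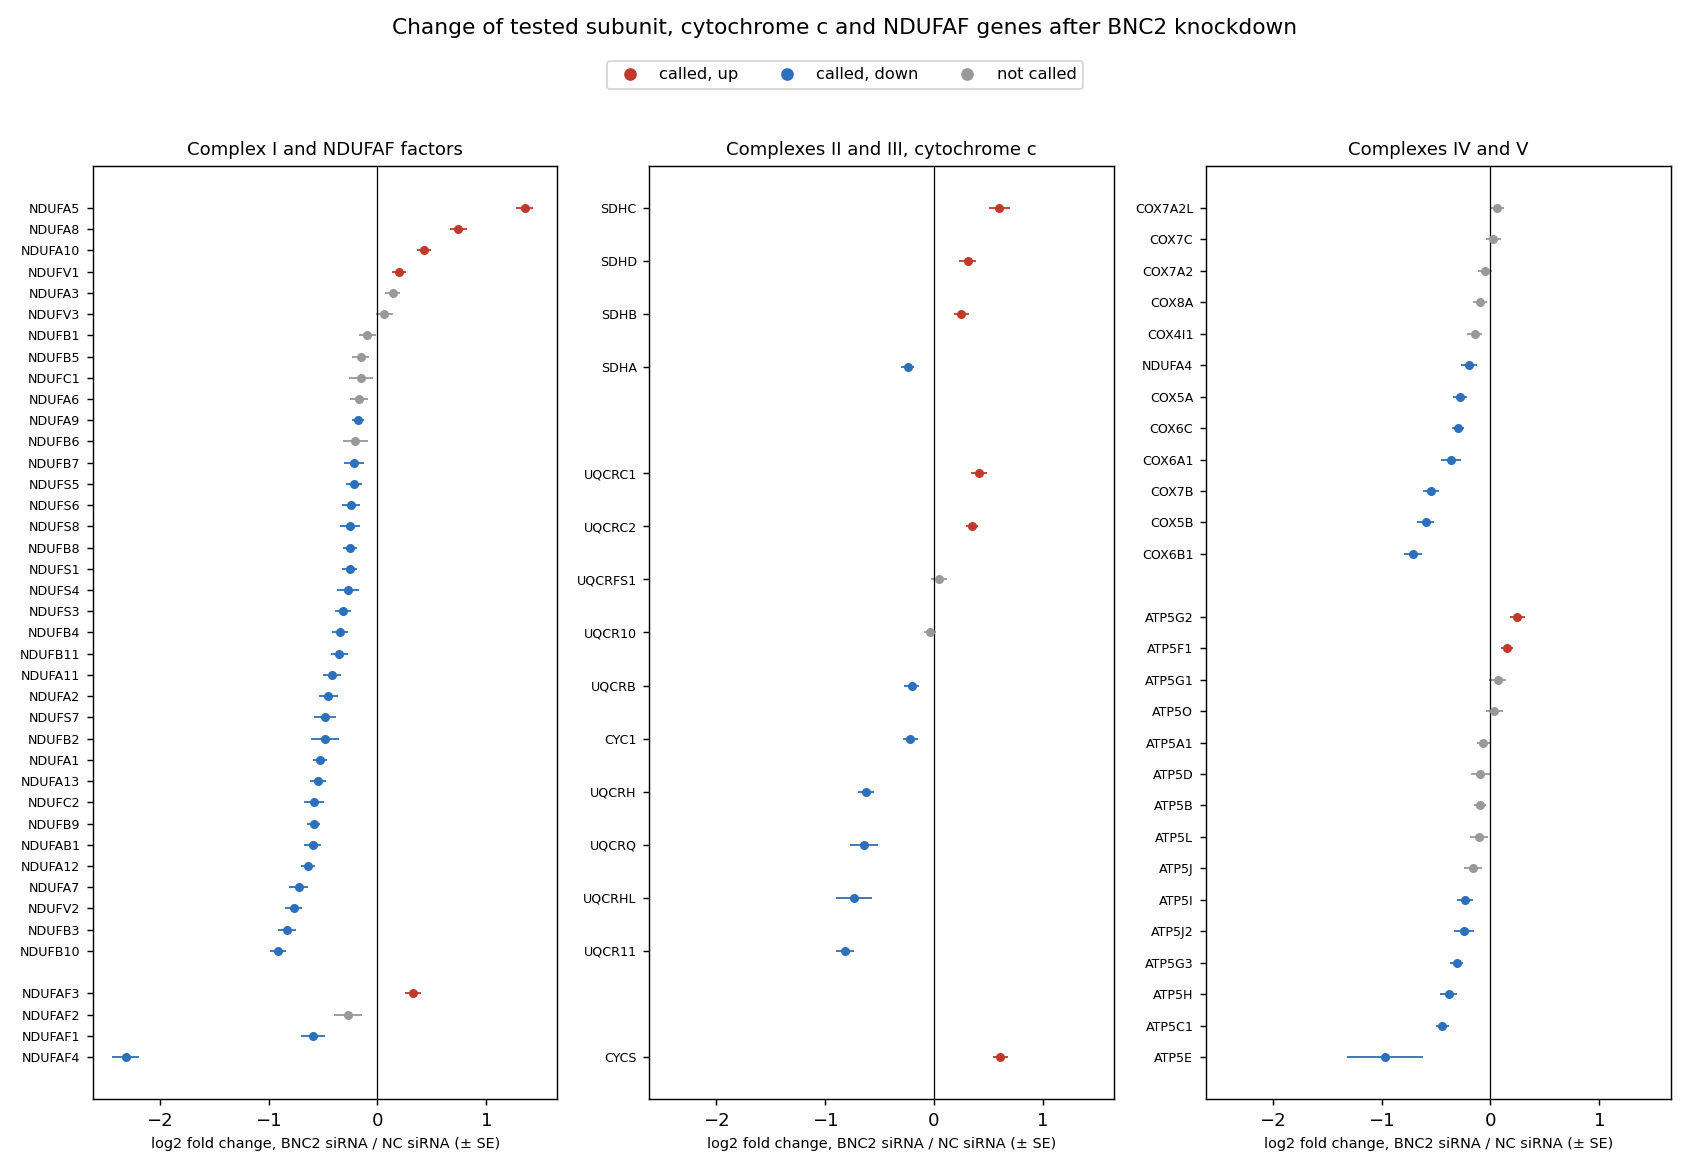
Log2 fold change, BNC2 siRNA over NC siRNA, of tested subunit, cytochrome c and NDUFAF genes, with its standard error as a horizontal bar, ordered by size within each complex. Red points were called up, blue points called down and grey points not called at an adjusted p of 0.05; NDUFAF4 at -2.31 and NDUFA5 at 1.35 mark the ends of the range.

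Some of these genes carry motifs known from nuclear respiratory genes in their promoters. The sequences just before the start sites of CYCS, NDUFAF4 and NDUFB10 are shown. CYCS was chosen as a gene that rose and holds an NRF1 match, and NDUFAF4 and NDUFB10 because they fell most among members with a single start in the table, apart from ATP5E, whose counts are very low. The 250 bases upstream of the start are from RefSeq (GRCh38.p14), read 5′ to 3′ on the strand of the gene, with matches to the searched motifs in capitals. The window of CYCS, chr7:25125261-25125510 on the minus strand, holds a match to the NRF1 motif. That of NDUFAF4, chr6:96897892-96898141 on the minus strand, holds an ETS motif, the kind bound by GABPA, and that of NDUFB10, chr16:1959288-1959537 on the plus strand, holds an SP1 motif on its opposite strand.
CYCS: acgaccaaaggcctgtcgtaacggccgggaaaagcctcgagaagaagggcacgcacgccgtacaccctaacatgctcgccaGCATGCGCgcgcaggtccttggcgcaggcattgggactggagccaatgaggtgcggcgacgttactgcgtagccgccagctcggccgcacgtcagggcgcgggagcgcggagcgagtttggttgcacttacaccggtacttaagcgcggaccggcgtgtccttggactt
NDUFAF4: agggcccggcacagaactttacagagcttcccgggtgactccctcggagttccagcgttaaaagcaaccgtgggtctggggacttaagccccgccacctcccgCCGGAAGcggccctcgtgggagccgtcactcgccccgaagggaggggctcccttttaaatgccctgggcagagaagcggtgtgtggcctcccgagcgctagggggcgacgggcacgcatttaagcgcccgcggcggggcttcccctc
NDUFB10: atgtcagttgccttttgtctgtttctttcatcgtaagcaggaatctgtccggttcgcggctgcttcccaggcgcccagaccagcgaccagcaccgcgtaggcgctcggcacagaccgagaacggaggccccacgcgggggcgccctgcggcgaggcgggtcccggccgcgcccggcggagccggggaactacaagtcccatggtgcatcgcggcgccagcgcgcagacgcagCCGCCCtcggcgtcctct

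Among the 58 tested members with a single promoter window, 11 (19.0%) held the NRF1 motif GCGCATGC on either strand, against 5.58% of 6841 genes tested. The ETS motif CCGGAAG was in 15 windows (25.9%, against 18.8%), the YY1 motif GCCATNTT in 3 (5.17%, against 4.59%) and the SP1 motif GGGCGG in 32 (55.2%, against 71.5%), and no searched motif lies within another. Among the 9 such members called up, 3 held the NRF1 motif and 2 the ETS motif, and among the 35 called down these numbers were 7 and 12. The motif is a match of letters and not a measured binding site. RNA of the factor NRF1 itself was 17.9 CPM with NC siRNA and 18.3 CPM with BNC2 siRNA and was not called. GABPA, of the ETS motif, and YY1 were called up, with log2 fold changes of 0.46 and 0.43. Whether these factors act on the members was not tested.

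Complex I, the NADH dehydrogenase at which most electrons enter, had all of its 37 genes tested, of which 25 fell, 5 rose and 7 were not called. The median of its log2 fold changes was -0.26. The falls were spread over the enzyme and the rises were few but included the largest of any subunit. The core subunits carry the flavin, the iron-sulfur clusters and the quinone site.
NDUFV1, the flavin-binding subunit, was slightly higher, with a log2 fold change of 0.20 and an adjusted p of 9.2e-03, a call that was lost without BNC2 siRNA replicate 1 and with scaling by total counts only.
Its partner NDUFV2, an iron-sulfur subunit of the NADH-oxidising tip, went the other way: 59.0, 66.7 and 61.2 CPM with NC siRNA against 35.9, 40.1 and 33.7 CPM with BNC2 siRNA. Its log2 fold change was -0.77 (SE 0.08, adjusted p = 1.7e-07). Further core subunits fell less: NDUFS7 by 0.48, NDUFS3 by 0.32, NDUFS1 by 0.26 and NDUFS8 by 0.25 on the log2 scale. The groups overlapped for NDUFS8, with 128 CPM in NC siRNA replicate 1 and 144 CPM in BNC2 siRNA replicate 1, and its call was lost when any library other than a first replicate was left out.

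Accessory subunits surround the core of complex I and are needed for its assembly and stability. Of the 13 NDUFA genes of complex I (counting NDUFAB1), 8 fell and 3 rose. NDUFA5, a subunit of the arm that reaches into the matrix, had the largest rise of any member: 18.9, 20.7 and 19.9 CPM with NC siRNA against 49.1, 50.0 and 52.9 CPM with BNC2 siRNA. The means of 19.8 ± 0.93 and 50.7 ± 1.98 CPM (SD, n = 3) gave a log2 fold change of 1.35 with an SE of 0.08 (adjusted p = 1.2e-10), without overlap. The gene lies at chr7:123177051-123197958 on the minus strand (GRCh37).
NDUFA8, which faces the intermembrane space, measured 34.1, 38.6 and 36.4 CPM in controls and 65.7, 59.8 and 57.0 CPM after knockdown (log2 fold change 0.74, SE 0.08, adjusted p = 1.7e-07). NDUFA10 rose by 0.42 on that scale (adjusted p = 1.8e-05). Among the falls were NDUFA7 (-0.72), NDUFA12 (-0.64), the acyl carrier protein NDUFAB1 (-0.59), NDUFA13 (-0.55) and NDUFA1 (-0.53), all log2 fold changes. NDUFA3 and NDUFA6 were not called, although the BNC2 siRNA libraries of NDUFA3 were all above those of NC siRNA.

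The 13 NDUFB and NDUFC genes, whose products belong to the proton-pumping membrane arm, all had negative log2 fold changes, from -0.91 to -0.09, and 9 of them fell. NDUFB10 had the largest of these: 103, 120 and 128 CPM with NC siRNA against 64.3, 61.6 and 60.9 CPM with BNC2 siRNA. Its level dropped from 117.4 ± 12.6 to 62.2 ± 1.80 CPM (SD, n = 3; log2 fold change -0.91, SE 0.07, adjusted p = 1.1e-08), and no BNC2 siRNA library came near the lowest NC siRNA library. NDUFB3 was next at 51.2, 48.7 and 52.5 CPM against 31.2, 29.1 and 25.3 CPM (log2 fold change -0.83, SE 0.08, adjusted p = 1.1e-07). NDUFB9, a binding partner of the acyl carrier, and NDUFC2 had log2 fold changes of -0.59 and -0.58 and were called. The genes not called were NDUFB1, NDUFB5, NDUFB6 and NDUFC1. NDUFB7 was called at an adjusted p of 0.048 with overlapping groups, and lost its call without any one library other than a first replicate, with edgeR's own filter for low counts and with counts of both strands. Of the 4 accessory NDUFS and NDUFV genes, NDUFS4, NDUFS5 and NDUFS6 fell by 0.21 to 0.27, with overlap for NDUFS4 and NDUFS6, and NDUFV3 was not called. Each of these 3 calls was lost without NC siRNA replicate 3. It was also lost without BNC2 siRNA replicate 1 or 3 for NDUFS4, without BNC2 siRNA replicate 2 for NDUFS5, and without either BNC2 siRNA replicate 2 or 3 for NDUFS6.

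The NDUFAF genes encode complex I assembly factors that are not part of the finished enzyme, and one of them changed more than any other member. NDUFAF4, which acts together with NDUFAF3 early in the assembly of the matrix arm, stood at 22.2, 22.2 and 23.2 CPM with NC siRNA and at only 5.41, 3.61 and 4.58 CPM with BNC2 siRNA. The fall of 79.9% amounts to -2.31 on the log2 scale (SE 0.13, adjusted p = 8.6e-11), and leaving out any one library gave -2.46 to -2.16. NDUFAF4 lies at chr6:97337191-97345767 on the minus strand (GRCh37). Its partner NDUFAF3 rose, from 35.8, 38.9 and 39.4 CPM to 51.6, 44.4 and 47.1 CPM (log2 fold change 0.33, SE 0.08, adjusted p = 1.1e-03). NDUFAF1, of the membrane arm assembly machinery, fell by 0.59 (SE 0.11, adjusted p = 1.3e-04). NDUFAF2 had a log2 fold change of -0.27 and was not called, with NC siRNA values between 42.7 and 62.1 CPM.

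**Figure D2:**
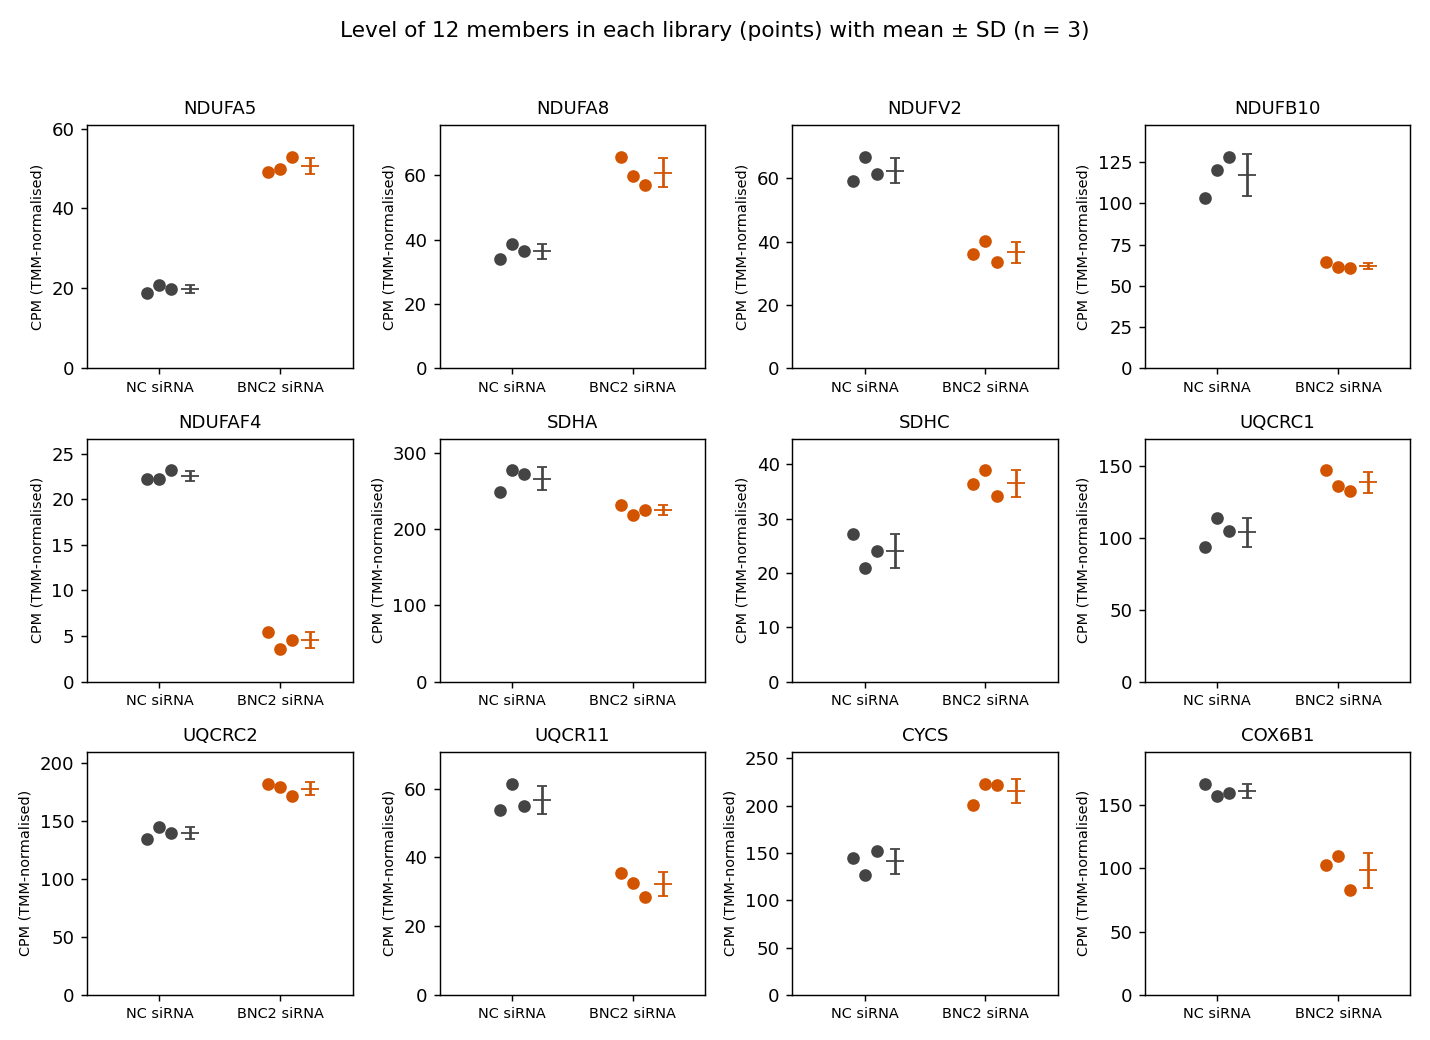
CPM (TMM-normalised, linear axis from 0) of 12 members in each of the 6 libraries, grey points for NC siRNA and orange points for BNC2 siRNA, with the group mean ± SD (n = 3) beside them. In each panel the groups do not overlap; NDUFAF4 went from 22.5 to 4.53 CPM and NDUFA5 from 19.8 to 50.7 CPM.

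Complex II was the one complex in which most genes were higher: SDHB, SDHC and SDHD rose and SDHA fell, and the median change was 0.28 on the log2 scale. SDHC, which with SDHD anchors the enzyme in the membrane, stood at 27.3, 20.9 and 24.0 CPM with NC siRNA and at 36.4, 38.9 and 34.1 CPM with BNC2 siRNA (log2 fold change 0.60, SE 0.10, adjusted p = 2.6e-05). SDHD and the iron-sulfur subunit SDHB rose by 0.31 and 0.25 on the log2 scale. SDHA, the flavoprotein that oxidises succinate, measured 249, 278 and 273 CPM with NC siRNA and 232, 219 and 226 CPM with BNC2 siRNA (log2 fold change -0.24, SE 0.06, adjusted p = 1.3e-03). The groups of libraries did not overlap for any of the 4 genes. Pseudogene copies of SDHA exist elsewhere in the genome, and reads that map to several places were not counted.

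Complex III, the cytochrome bc1 complex, had 10 genes tested, with 2 up, 6 down and 2 not called. The median change was -0.21 on the log2 scale. Both core proteins were higher and the small subunits had negative changes. The core proteins UQCRC1 and UQCRC2, which hold the enzyme together on the matrix side, rose: UQCRC1 from 93.5, 114 and 105 CPM to 147, 136 and 133 CPM (log2 fold change 0.42, SE 0.07, adjusted p = 5.9e-05), and UQCRC2 by 0.35 (SE 0.06, adjusted p = 3.2e-05). Of the redox-active subunits, the Rieske iron-sulfur protein UQCRFS1 was not called (99.0 CPM against 102.3 CPM), and cytochrome c1, CYC1, fell by 0.22 (adjusted p = 0.010), a call lost without BNC2 siRNA replicate 2 or 3.
The 6 small subunit genes all had negative log2 fold changes, and 5 of them fell. UQCR11 stood at 53.7, 61.4 and 54.9 CPM with NC siRNA against 35.5, 32.4 and 28.5 CPM with BNC2 siRNA (log2 fold change -0.82, SE 0.09, adjusted p = 2.2e-07). UQCRQ, which sits beside cytochrome b, fell by 0.64, the hinge protein gene UQCRH by 0.63 and UQCRB by 0.20, of which the call of UQCRB was lost without BNC2 siRNA replicate 3 or NC siRNA replicate 3. UQCRHL, a near-identical copy of UQCRH at only 5.06 CPM with NC siRNA, fell by 0.73, but reads may be shared between this pair and its value is uncertain. UQCR10 was not called, at 115.4 ± 1.50 CPM against 112.8 ± 1.42 CPM (SD, n = 3).

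Cytochrome c, encoded by CYCS, carries electrons from complex III to complex IV and, when released to the cytosol, takes part in apoptosis. CYCS stood at 144, 127 and 152 CPM with NC siRNA and at 201, 223 and 222 CPM with BNC2 siRNA. This increase of 52.7% (log2 fold change 0.61, SE 0.07, adjusted p = 6.3e-07) left a wide gap between the groups. The gene lies at chr7:25158275-25164879 on the minus strand (GRCh37), and its many processed copies make it a further gene for which only uniquely mapping reads were counted.

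Complex IV, cytochrome c oxidase, was the complex with no gene called up, and none rose at an unadjusted p under 0.05 or with DESeq2 either. Of 12 genes tested, 7 fell and 5 were not called, and the median change was -0.24 on the log2 scale. COX6B1, a subunit on the intermembrane space side, had the largest fall: 167, 157 and 159 CPM with NC siRNA against 102, 110 and 83.2 CPM with BNC2 siRNA (log2 fold change -0.71, SE 0.08, adjusted p = 5.7e-07). The zinc-binding subunit COX5B went from 69.0, 87.8 and 74.0 CPM to 52.6, 50.4 and 49.6 CPM (log2 fold change -0.60, SE 0.08, adjusted p = 5.2e-06). COX7B fell by 0.55, COX6A1 by 0.36, COX6C by 0.30, COX5A by 0.28 and NDUFA4, once placed in complex I and now in complex IV, by 0.20. The call of NDUFA4 was lost without BNC2 siRNA replicate 2 or 3 or NC siRNA replicate 3.
COX4I1, which takes part in the response of the enzyme to ATP, measured 250 to 284 CPM with NC siRNA and 222 to 266 CPM with BNC2 siRNA, overlapping, and was not called. COX7A2, COX7C, COX8A and COX7A2L, the last of which links complexes III and IV into supercomplexes, were also not called, with log2 fold changes between -0.10 and 0.06. Isoforms known from muscle, lung or testis were close to silent in these cells. COX4I2, COX7A1 and COX7B2 had 0 counts in all libraries, which allows up to 0.186 CPM in the shallowest one (3 counts, counting error only). COX6A2, COX8C and COX6B2 had at most 7 counts and NDUFA4L2, the hypoxia-inducible relative of NDUFA4, 5 to 12 counts, so a difference was not detectable at this depth.

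Complex V, the ATP synthase, had 6 of its 15 tested genes called down, 2 up and 7 not called. Their median change was -0.11 on the log2 scale, and it ran from -0.21 without NC siRNA replicate 1 and -0.18 without BNC2 siRNA replicate 1 to -0.06 without BNC2 siRNA replicate 3. The catalytic subunits were among those not called. ATP5B, the beta subunit, stood at 456, 471 and 474 CPM with NC siRNA and at 452, 444 and 413 CPM with BNC2 siRNA (log2 fold change -0.10, adjusted p = 0.12), and the alpha subunit ATP5A1 at 316.9 ± 19.2 CPM against 303.0 ± 4.49 CPM (SD, n = 3).
ATP5C1, the gamma subunit that turns inside the catalytic head, was lower in every BNC2 siRNA library: 135, 135 and 148 CPM with NC siRNA against 109, 98.7 and 100 CPM (log2 fold change -0.44, SE 0.06, adjusted p = 8.0e-06). In the stalk and membrane part, ATP5H fell by 0.38, ATP5J2 by 0.24 and ATP5I by 0.23, and ATP5F1 rose by 0.15, while ATP5G1, ATP5J, ATP5L and ATP5O were not called, nor was ATP5D of the head. The call of ATP5J2 was lost without any one library other than a first replicate, and that of ATP5F1 without any one library other than BNC2 siRNA replicate 3.
The 3 genes for the c-ring, whose mature proteins are identical, differed: ATP5G3 fell by 0.31 (adjusted p = 2.8e-04), ATP5G2 rose by 0.25 (adjusted p = 5.3e-03) and ATP5G1 had a log2 fold change of 0.07 and was not called. ATP5E, the epsilon subunit, was counted at only 1.39 CPM with NC siRNA and 0.71 CPM with BNC2 siRNA. It passed the filter only through the NC siRNA libraries, where it is higher, so its call down (log2 fold change -0.97, SE 0.35) carries no weight, and without it 5 genes of complex V and 47 members fell. The call was lost without BNC2 siRNA replicate 2, and the gene could not be tested without any one NC siRNA library. ATP5EP2 is a near-identical copy, at 1.53 CPM with NC siRNA, and how reads divide between the pair was not tested. Without NC siRNA replicate 1, 10 genes of complex V were called down in place of 6, and complex V had 1 gene called up in place of 2 when any library other than BNC2 siRNA replicate 3 was left out.

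**Figure D3:**
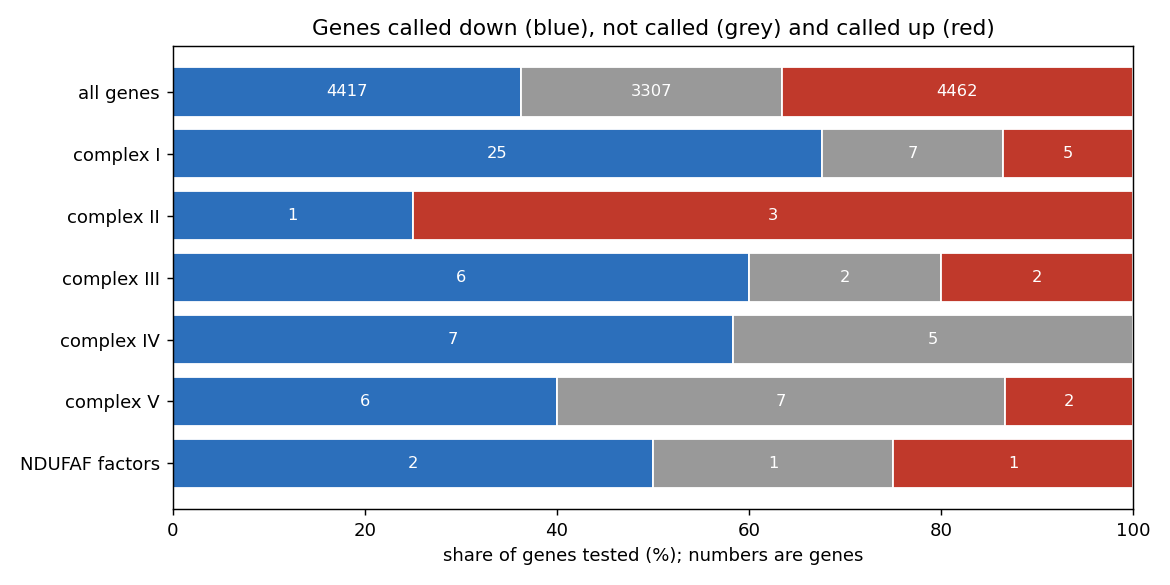
Share of tested genes called down (blue), not called (grey) and called up (red) in each complex, among the NDUFAF factors and over all genes tested, with the number of genes written in each bar. Over all genes 4417 were called down and 4462 up; complex I had 25 down and 5 up, and complex II had 1 down and 3 up.

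A few genes carry a matching symbol without being subunits. ATP5S, also known as coupling factor B, rose from 3.24 to 5.56 CPM (log2 fold change 0.77, SE 0.18, adjusted p = 1.0e-03). ATP5SL, now known as DMAC2 and needed for complex I assembly, fell by 0.50 (SE 0.07, adjusted p = 4.2e-06). COX4NB, now EMC8 of the endoplasmic reticulum membrane complex, and the copy ATP5EP2 were not called. UQCRBP1, ATP5L2 and the read-through genes NDUFC2-KCTD14 and ATP5J2-PTCD1 had at most 2 counts and were not tested. The read-through genes span NDUFC2 and ATP5J2 on the same strand, and reads that overlap several genes were not counted for any of them. Low counts of the read-through genes therefore do not show absence, and NDUFC2 and ATP5J2 may lack reads from shared exons.

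Summed over its genes, complex I took 2668, 2812 and 2889 CPM with NC siRNA and 2470, 2357 and 2287 CPM with BNC2 siRNA, a change in the mean of -15.0%. Complex IV changed by -15.3%, complex III by -7.24%, complex V by -7.01% and complex II by -1.96%. For complexes I and IV the groups did not overlap, and for complexes II, III and V they did. Within each group the first replicate lay closest to the other group: all members together summed to 7677 CPM in NC siRNA replicate 1, the lowest of its group, and to 7566 CPM in BNC2 siRNA replicate 1, the highest of its group. The part of these libraries in the results was not tested beyond leaving each of them out. Abundant transcripts weigh most in such sums.

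**Figure D4:**
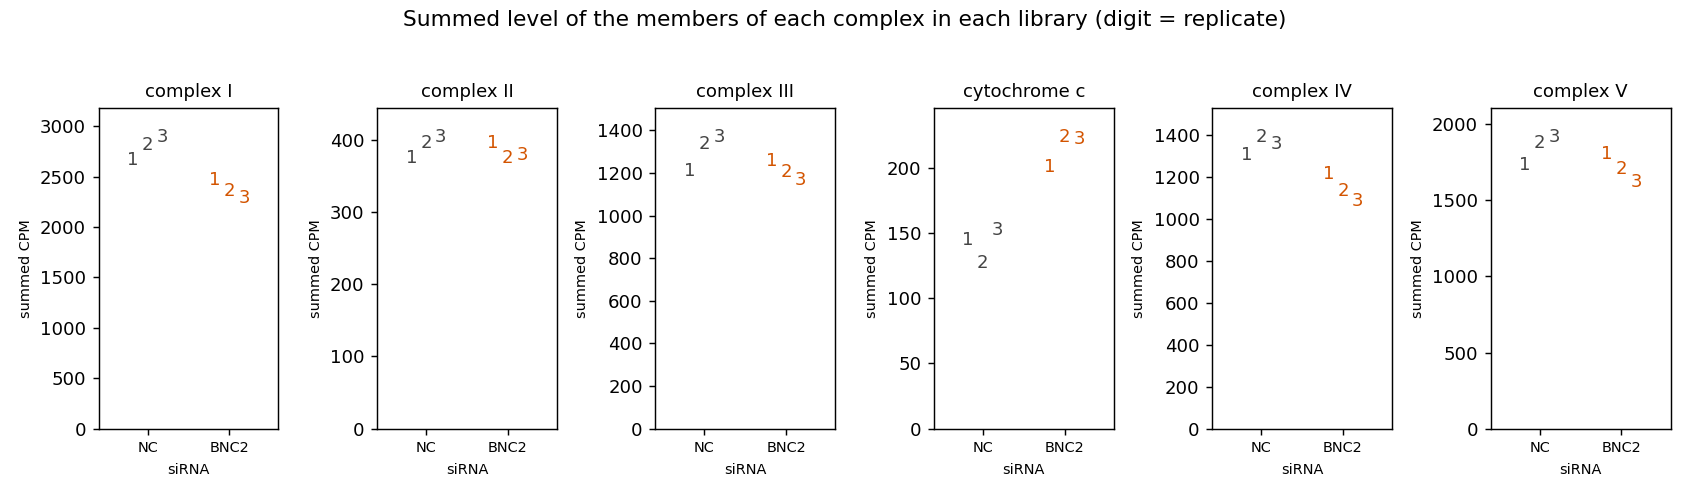
Summed CPM of the genes of each complex and of cytochrome c in each library, with the digit giving the replicate, grey for NC siRNA and orange for BNC2 siRNA, on linear axes from 0. Complexes I and IV separate the groups (-15.0% and -15.3% in the mean), complexes II, III and V overlap, and cytochrome c is higher by 52.7% with BNC2 siRNA.

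Members also differed in level by a wide margin. Per kilobase of transcript (the mean length of the protein-coding transcripts of a gene in GENCODE, which need not be the isoform used by the cells), NDUFA1 had the highest level of complex I with NC siRNA, 594 CPM per kb, and ATP5B that of complex V, 475 CPM per kb. UQCRH led complex III with 211 CPM per kb and SDHA complex II with 162 CPM per kb. COX4I1 had the highest level of complex IV, 330 CPM per kb, but with the longest transcript as length it had 180.8 CPM per kb, below COX8A at 253.1 CPM per kb, whereas the other leaders stayed first. NDUFA5, the member with the largest rise, was among the lowest of complex I, at 5.77 CPM per kb with NC siRNA and 14.7 CPM per kb with BNC2 siRNA. Across the 83 subunit, carrier and NDUFAF genes tested, Pearson's r between the log2 level with NC siRNA and the log2 fold change was 0.14, and that between log2 transcript length and the log2 fold change 0.18, both across genes of the same libraries.

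BNC2 RNA was targeted with a pool of siRNAs, which can also act on other transcripts through their seed (bases 2 to 8 of the guide strand). The guide strands are shown for this reason, with the seed in capitals. The study's list numbers the antisense strand of siRNA 3 as that of siRNA 2, and it is given here as siRNA 3 because it is complementary to the sense strand of that number.
siRNA 1: uUUACACUgaucacaagucct
siRNA 2: uUGUCAUAgaaugucuucctt
siRNA 3: uUUCGGCUucguacagaggtt
Sites complementary to a seed (AGTGTAA for siRNA 1, TATGACA for siRNA 2 and AGCCGAA for siRNA 3) were present in the annotated 3′UTR of 9 of 83 members (10.8%), whose median 3′UTR was 451 bases long, and in that of 24.1% of 11521 genes tested, with a median of 1570 bases. Of the members called down, 5 of 47 held a site, and of those called up, 1 of 14. NDUFAF4 had none.

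Beyond the structural genes, the factors that build and supply the respiratory chain were also examined. Of 93 genes tested from 8 lists (assembly factors of each complex, regulators of mitochondrial biogenesis, the TCA cycle with pyruvate dehydrogenase, and carriers), 29 rose, 26 fell and 38 were not called. The shares called up (31.2%) and down (28.0%) lay below those of all genes tested (36.6% and 36.2%). Their median change rounded to 0.00 on the log2 scale, like that of all genes. Of the 9 complex I factors, 2 rose and 3 fell. NUBPL, which delivers iron-sulfur clusters to complex I, stood at 6.03, 6.72 and 5.00 CPM with NC siRNA and at 17.1, 15.5 and 16.5 CPM with BNC2 siRNA (log2 fold change 1.46, SE 0.12, adjusted p = 1.7e-08), and ACAD9 rose by 0.57. TMEM126A and TMEM126B, of the membrane arm, fell by 1.20 and 0.83, and COA1 (C7orf44 in the table) by 0.59.

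The other assembly factors also went both ways, although those called went only up for complex III and only down for complex V. For complex II, SDHAF3 (ACN9), which helps to mature the iron-sulfur subunit, rose by 1.36, and SDHAF2, which attaches the flavin to SDHA, fell by 0.53, as did SDHAF1 by 0.36. For complex III, 3 of 6 factors rose and the other 3 were not called: LYRM7, which guides the Rieske protein, rose by 0.96, UQCC by 0.73 and UQCC3 (C11orf83) by 0.62. For complex IV, 5 of 24 rose and 6 fell. COX15, of haem A synthesis, stood at 23.8, 22.8 and 24.1 CPM against 55.8, 58.1 and 57.1 CPM (log2 fold change 1.27, SE 0.07, adjusted p = 9.6e-11), and LRPPRC, which stabilises mitochondrial mRNAs, at 138 against 270.3 CPM (log2 fold change 0.97, adjusted p = 2.9e-10). PET117 went from 0.94 to 2.35 CPM but passed the filter mainly through the BNC2 siRNA libraries, and without it 4 of these factors rose. COX14 fell by 0.96, COX19 by 0.56 and PET100 (C19orf79) by 0.43. For complex V, TMEM70, which promotes assembly of the c-ring, went from 36.8, 36.8 and 38.4 CPM to 15.5, 13.3 and 15.0 CPM (log2 fold change -1.35, SE 0.09, adjusted p = 5.0e-10), and TMEM242 fell by 0.49.

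Of 13 regulators of mitochondrial biogenesis tested, 6 rose and 2 fell. TEFM and TFB1M, which serve mitochondrial transcription and ribosomal RNA, rose by 0.71 and 0.67, and GABPA by 0.46. GABPB2 fell by 0.90, and TFAM, which packages and transcribes mitochondrial DNA, from 71.3 to 52.9 CPM (log2 fold change -0.43, adjusted p = 1.6e-05). The coactivator gene PPARGC1A was below the level for testing. Of 24 TCA cycle and pyruvate dehydrogenase genes, 9 rose and 9 fell. PDK1, a kinase that inactivates pyruvate dehydrogenase, stood at 18.2, 17.0 and 17.5 CPM with NC siRNA and at 52.2, 52.0 and 57.7 CPM with BNC2 siRNA (log2 fold change 1.62, SE 0.08, adjusted p = 2.0e-11). PDP2, a phosphatase that reverses this, rose by 0.83, whereas SUCLG1, IDH3B and MPC2 (BRP44) fell by 0.60, 0.56 and 0.40. Among 9 carriers, the ATP synthase inhibitor ATPIF1 rose by 0.54, the phosphate carrier SLC25A3 by 0.26 and the ADP/ATP carrier SLC25A5 by 0.21, while UCP2 and SLC25A4 fell by 0.83 and 0.29.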

How the data were processed

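Single-end reads of poly(A) RNA were aligned and counted by the authors with STAR 2.6.1d on hg19 (iGenomes UCSC annotation). The deposited values are raw counts of uniquely mapped reads per gene, so reads shared with a copy are missing rather than split. Reads not assigned to a single gene (37.7% to 41.1% per library) were left out. They include reads that map to several places and reads that overlap several genes. The methods describe 3 biological replicates per group. The labels and the methods name different transfection reagents.

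The 12186 genes above 1 CPM in 3 or more of the 6 libraries were tested in R 4.3.3 with edgeR 4.0.16 (limma 3.58.1): TMM scaling (factors 0.972 to 1.04) and the quasi-likelihood test of BNC2 siRNA against NC siRNA, without a block, adjusted after Benjamini-Hochberg over all genes and called at an adjusted p of at most 0.05. The common biological coefficient of variation was 6.16%. CPM are TMM-normalised. SE is the log2 fold change divided by the square root of F. Alternatives were edgeR's likelihood ratio test, DESeq2 1.42.0, its size factors, scaling by total counts only, other filters for low counts, both strands, a replicate block and leaving out each library. The script was tested on simulated data. Tables were made in Python 3.11.15 with pandas 2.3.3 and numpy 2.4.6.

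The members and lists were chosen with earlier results of these data known. Named genes are the core subunits, isoform families, and genes not tested or not called. They also include up to 3 of the largest called rises and falls per complex or list. Other members named with a call, and YY1, were added after their values were seen. Positions and transcript lengths are from GENCODE on GRCh37, older symbols were matched through RefSeq (21995 of 23346 genes), and promoters are from RefSeq on GRCh38.p14. Some single genes enter the totals without being named.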

Additional observations from a re-analysis of the deposited data

How the results depend on the processing

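Of the 63 members called, 51 were called in the same direction under all 14 alternatives, including each left-out library, and none of the 63 changed sign where it could be tested. ATP5E could not be tested without any one NC siRNA library. NDUFB7 lost its call with edgeR's filterByExpr and with counts of both strands. The likelihood ratio test, DESeq2 and DESeq2's size factors each called the same number of members, 48 down and 15 up. Scaling by total counts only, which lowered the median of all genes by 0.08, gave 58 down and 13 up and moved the median log2 fold change of the members from -0.23 to -0.31. It also gave 10 complex V genes down and 1 up, against 6 and 2, with a median of -0.18 in place of -0.11, and turned the sign of members that were not called: ATP5G1 (-0.0107), ATP5O (-0.0391), COX4NB (-0.0626), COX7A2L (-0.0183), COX7C (-0.0499), NDUFV3 (-0.0138) and UQCRFS1 (-0.0287). Counts from both strands gave COX4NB a log2 fold change of -0.00281. Leaving out each library gave 40 to 57 members down, 13 to 16 up, a median of -0.29 to -0.20, a BNC2 log2 fold change of -0.73 to -0.56, and 21 to 31 down and 27 to 31 up in the other lists. Among members not called, the sign changed for ATP5O (-0.0386 to 0.0817), COX4NB (-0.0365 to 0.0240), COX7A2L (-0.00619 to 0.0949), COX7C (-0.0450 to 0.0716) and UQCRFS1 (-0.0596 to 0.110). The median level per kilobase of the subunits became 54.1 CPM per kb when the longest transcript was used as length. The cause of these shifts was not tested beyond what each setting changes by its construction.

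With the replicate number as a block, 45 members fell and 14 rose, and ATP5F1, ATP5J2, NDUFA4 and NDUFB7 lost their calls. BNC2 siRNA and NC siRNA libraries with the same number deviated in opposite directions (correlations of -0.21, -0.08 and -0.13), so the numbers were not taken as pairs.

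With 3 libraries a group, genes near 1 CPM, such as ATP5E, PET117 and ATP5EP2, rest on few counts, and values for genes with near-identical copies depend on which reads map uniquely. The p-values measure the spread between these replicates of one cell line and one pool of siRNAs. The RNA levels of mitochondrially encoded subunits, protein levels and respiration were not analysed here.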
